A study of Mus musculus with 2 samples.

Results

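Glutathione transferases, cytochromes P450 of families 1 to 4, UDP-glucuronosyltransferases, sulfotransferases and carboxylesterases were compared between the atherosclerosis-prone arch and the atherosclerosis-resistant thoracic aorta of the mouse. Members were taken by gene name: Gst, Cyp1 to Cyp4, Ugt, Sult and Ces genes. They were further chosen by their signal: a probe was kept if the scanner software called it well above background in at least 1 region on both arrays. This kept 89 of 104 gene names, read by 112 of 152 probes, out of 21548 names and 30520 probes kept on the whole array. The choice did not use the ratio between regions.

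Arch tissue comprised the aortic root, the arch and 2 mm of thoracic aorta beyond it, while the thoracic tissue was the 6 mm that followed. Both came from the same 6 wild-type C57Bl/6 mice (3 males and 3 females, 16 weeks old), and both were perfused with triton X-100, a detergent that strips the endothelium. RNA of the 6 mice was pooled per region, so there was 1 pool of arch RNA and 1 pool of thoracic RNA, and no spread between animals was measured. The same 2 pools were hybridised on 2 two-colour arrays with the dyes swapped. No test or p-value could therefore be given: ± is the distance of either array from their mean, a technical error only. A ratio is the log2 of arch over thoracic aorta, and a probe was called when it differed at least 1.5-fold the same way on each array. Signals are normalised intensities that include an added offset of 50, which pulls the ratios of dim probes towards 0; signals of different probes are not comparable. In bulk RNA, fewer cells of a type and less RNA per cell cannot be told apart.

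These enzymes make fat-soluble compounds easier to excrete. Cytochromes P450 add oxygen to a substrate and carboxylesterases split esters. Glutathione transferases, UDP-glucuronosyltransferases and sulfotransferases then attach glutathione, glucuronic acid or sulfate. They are known best from liver, where nuclear receptors and the Ah receptor drive many of them and NRF2 drives several glutathione transferases, but several act on the body's own lipids and steroids, and some are made in the vessel wall and in fat.

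Promoters are shown for members at either end of the ratios: Gsta3, the highest; Gsta1, of the same class; Cyp2e1, the highest P450; and Cyp2a4 and Cyp2a5, near-identical genes among the lowest. Each window of 300 bases runs from 250 bases before to 50 bases after the RefSeq transcript start (GRCm38.p6, plus strand), with Gsta3 at chr1:21240335-21240634, Gsta1 at chr9:78230419-78230718, Cyp2e1 at chr7:140763569-140763868, Cyp2a4 at chr7:26306942-26307241, Cyp2a5 at chr7:26835089-26835388. Capitals mark matches to 4 motifs searched on both strands: the antioxidant response element core TGACNNNGC, bound by NRF2; the Ah receptor core GCGTG; the DR1 motif of PPAR type receptors, a direct repeat spaced by 1 base; and the TATA box TATAAA.
Gsta3: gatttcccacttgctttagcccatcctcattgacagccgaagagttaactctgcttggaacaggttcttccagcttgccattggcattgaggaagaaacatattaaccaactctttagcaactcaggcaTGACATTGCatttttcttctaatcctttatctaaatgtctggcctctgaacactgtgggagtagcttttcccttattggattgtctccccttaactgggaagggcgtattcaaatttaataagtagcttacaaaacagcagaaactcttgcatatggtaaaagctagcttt
Gsta1: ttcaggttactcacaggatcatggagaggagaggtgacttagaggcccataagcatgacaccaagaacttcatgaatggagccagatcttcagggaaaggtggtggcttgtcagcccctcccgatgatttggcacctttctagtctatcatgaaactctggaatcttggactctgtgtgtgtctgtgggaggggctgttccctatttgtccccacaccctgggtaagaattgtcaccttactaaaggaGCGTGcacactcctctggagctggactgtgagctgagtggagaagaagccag
Cyp2e1: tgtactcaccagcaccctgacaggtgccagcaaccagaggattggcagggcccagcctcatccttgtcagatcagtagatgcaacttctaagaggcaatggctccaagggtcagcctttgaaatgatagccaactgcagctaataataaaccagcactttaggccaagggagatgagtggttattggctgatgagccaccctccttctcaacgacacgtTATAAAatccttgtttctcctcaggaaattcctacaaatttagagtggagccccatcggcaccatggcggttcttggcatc
Cyp2a4: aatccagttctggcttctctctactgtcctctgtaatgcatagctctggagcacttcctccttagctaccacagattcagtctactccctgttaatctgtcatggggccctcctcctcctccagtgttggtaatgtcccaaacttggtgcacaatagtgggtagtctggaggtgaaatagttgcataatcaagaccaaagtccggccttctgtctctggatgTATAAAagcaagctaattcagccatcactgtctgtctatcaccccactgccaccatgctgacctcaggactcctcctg
Cyp2a5: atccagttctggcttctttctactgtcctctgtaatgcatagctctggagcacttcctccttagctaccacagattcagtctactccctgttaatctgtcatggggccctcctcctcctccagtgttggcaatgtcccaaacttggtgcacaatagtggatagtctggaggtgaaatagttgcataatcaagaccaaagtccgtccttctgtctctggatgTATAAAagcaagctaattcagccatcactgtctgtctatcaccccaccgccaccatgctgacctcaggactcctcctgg
The Gsta3 window held 1 antioxidant response element match, 121 to 113 bases before the start, and no other match. In Gsta1 the single match was an Ah receptor core that spanned the start. Cyp2e1, Cyp2a4 and Cyp2a5 each held only TATAAA. The Cyp2a4 and Cyp2a5 windows were identical at 294 of 301 aligned positions (97.7%). A promoter entry was found for 74 of the 89 member genes, 88 promoters in all. TGACNNNGC occurred in 9.09% of them and in 12.4% of all 32851 promoters, GCGTG in 20.5% and 32.4%, and TATAAA in 27.3% and 13.6%. DR1 was in 0 of the 88 and in 0.0396% of all. These matches describe letters in the window and nothing more.

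At the 1.5-fold threshold, 2 of the 112 member probes were called higher in the arch, against 0.21% of all kept probes (64 of 30520). None of the 112 was called lower, against 0.183% of all (56 probes). At 1.3-fold on each array the members called were 4 higher and 0 lower, against 0.528% and 0.423% of all kept probes. At 2-fold 1 member remained higher, against 11 of all kept probes, and 0 were lower, against 17. The median log2 ratio was 0.01 over the members and -0.00 over all kept probes. Of the members, 39 (34.8%) lay above 0 on both arrays, against 26.1% of all kept probes, and 21 (18.8%) lay below 0 on both arrays, against 27.6%. The counts themselves depended on the normalisation. With median centring in place of loess, 28 of the 112 members lay above 0 and 41 below 0 on both arrays. The kept probes moved down as a whole under that setting, with 5962 above and 13740 below of 30520. The members thus still had a larger share above 0 and a smaller share below 0 than all kept probes. The mean ratio of 94 members (83.9%) was within 0.2 of 0, as it was for 94.1% of all kept probes.

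**Figure D1:**
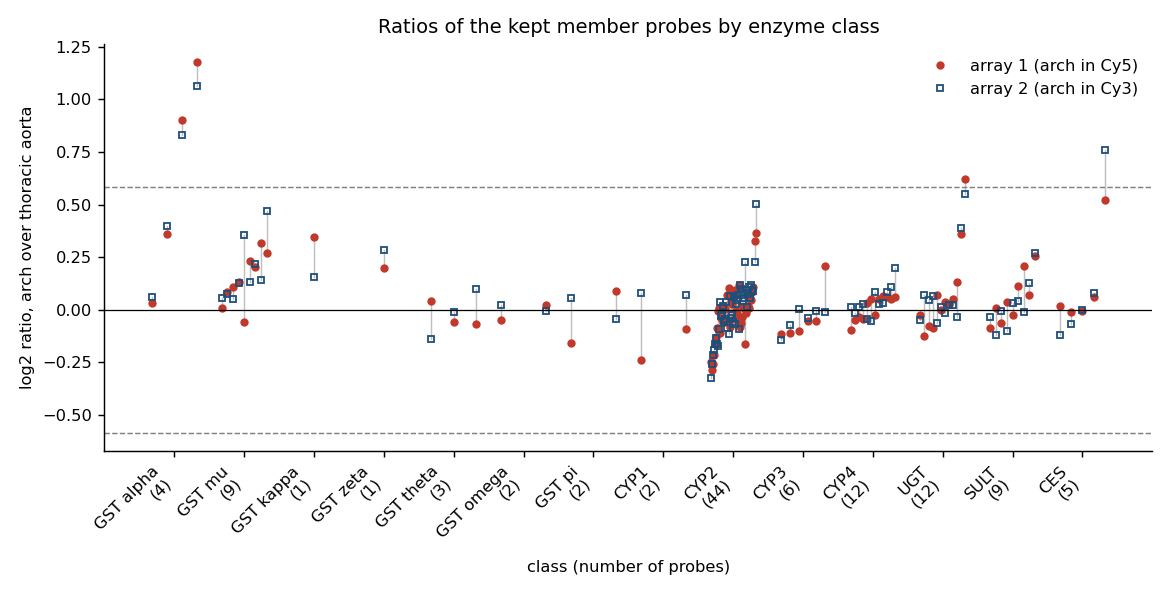
Log2 ratio of arch over thoracic aorta (y axis) of each kept member probe by enzyme class (x axis, number of probes in brackets), with filled circles for the array with the arch in Cy5, open squares for the array with the arch in Cy3, and dashed lines at 1.5-fold. Both Gsta3 probes lie above the upper line on both arrays, no probe lies below the lower line, and most P450 probes lie close to 0.

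Gsta3 was the member that differed most. It encodes an alpha-class glutathione transferase that in mouse liver conjugates the reactive epoxide of aflatoxin. Its first probe read 537 and 507 in the arch, against 238 and 242 in the thoracic aorta, a log2 ratio of 1.12 ± 0.06 or 2.17-fold. A second probe read 332 and 383 in the arch, against 178 and 215 in the thoracic aorta, a log2 ratio of 0.87 ± 0.03 or 1.82-fold. On both probes both arch signals exceeded both thoracic signals.

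The other alpha-class genes differed less. Gsta1, another alpha-class conjugating enzyme, read 108 and 116 in the arch, against 84.6 and 88.1 in the thoracic aorta, a log2 ratio of 0.38 ± 0.02. The probe is dim and its ratio depended on the background correction: in the scanner software's own ratios it was 0.94, and it passed the 1.5-fold threshold there. Gsta4, which conjugates aldehydes from oxidised lipids, read 97.6 and 106 in the arch, against 95.3 and 102 in the thoracic aorta, a log2 ratio of 0.05 ± 0.01. The array carries 10 spots of the Gsta4 probe, whose scanner log2 ratios averaged 0.07 with an SD of 0.168 on array 1 and 0.17 with an SD of 0.162 on array 2. All 4 alpha-class probes lay above 0 on both arrays, with a median of 0.62. Gsta2 had no kept probe.

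The mu class, cytosolic glutathione transferases of broad substrate range whose genes lie side by side on chromosome 3, differed by small amounts in 1 direction. All 9 probes of its 7 genes had a mean ratio above 0 and 8 lay above 0 on both arrays, with a median of 0.15 and none called. Gstm5 was highest, at 1264 and 1562 in the arch against 1049 and 1128 in the thoracic aorta, a log2 ratio of 0.37 ± 0.10. Gstm3 read 9171 and 9588 in the arch, against 7975 and 8254 in the thoracic aorta, a log2 ratio of 0.21 ± 0.01. For both genes the 2 regions' signals did not overlap after loess, but with median centring the ratios were 0.20 for Gstm5 and 0.04 for Gstm3.

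Gstm1 had 2 probes. The brighter gave 13790 and 12181 in the arch, against 11073 and 11036 in the thoracic aorta, a log2 ratio of 0.23 ± 0.09. On the other the arrays disagreed in sign, with -0.06 on array 1 and 0.35 on array 2. Gstm6 was lowest at 0.03 ± 0.02. The pattern depended on the normalisation: with median centring in place of loess the class median was 0.04, with 6 of 9 probes above 0 and 3 above 0 on both arrays. Mu-class genes are close in sequence and a probe may read more than 1 of them.

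Among the remaining classes, Gstk1, an enzyme of mitochondria and peroxisomes, read 1708 and 1479 in the arch, against 1345 and 1330 in the thoracic aorta, a log2 ratio of 0.25 ± 0.10. Gstz1, the maleylacetoacetate isomerase of tyrosine breakdown, read 235 and 255 in the arch, against 205 and 209 in the thoracic aorta, a log2 ratio of 0.24 ± 0.04. After loess both genes' regions were separate in signal, with ratios below 1.3-fold on both arrays. With median centring Gstz1 was at 0.13, and Gstk1 was at 0.08 and no longer above 0 on both arrays. The 2 probes of Gstp1, the pi-class enzyme, gave -0.05 ± 0.11 and 0.02 ± 0.07, with opposite signs on the 2 arrays. The 3 theta probes lay between -0.05 and 0.01 (Gstt3 lowest, Gstt1 highest). The 2 omega probes, for Gsto2 and for Gsto1, which also reduces dehydroascorbate, gave -0.01 and 0.01. Over all 22 glutathione transferase probes the median was 0.10 with loess, with 14 above 0 and 1 below 0 on both arrays. With median centring it was 0.01, with 8 above and 7 below.

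**Figure D2:**
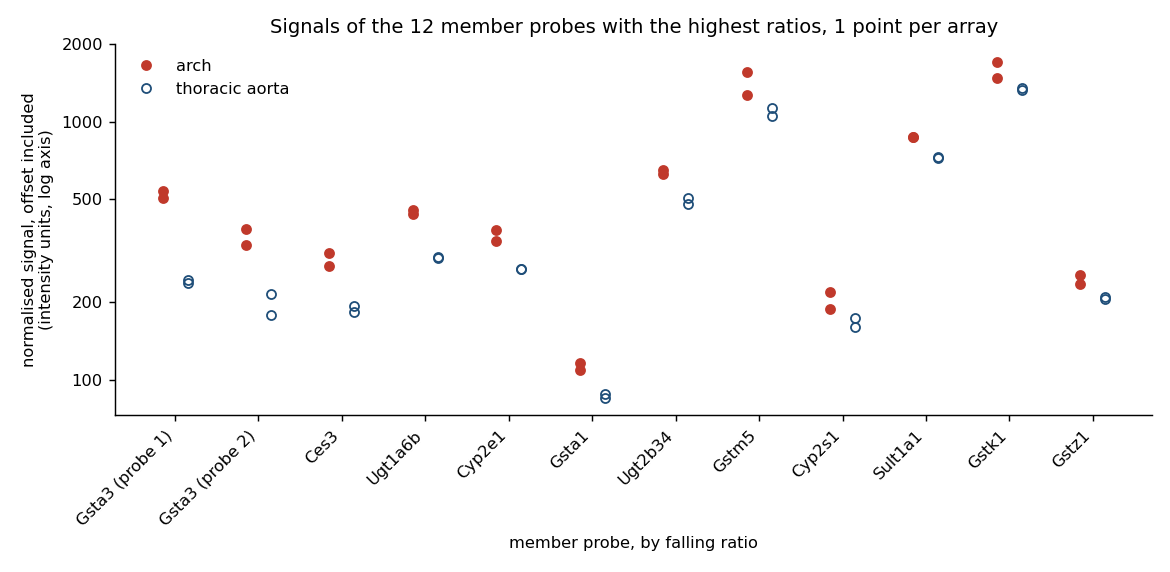
Normalised signal (y axis, intensity units with the offset of 50 included, log scale) of the 12 member probes with the highest ratios (x axis), with filled red points for the arch and open blue points for the thoracic aorta, 1 point per array. The arch points lie above the thoracic points for each of the 12, and the gap is widest for the first Gsta3 probe, at 537 and 507 against 238 and 242.

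The P450s as a group had a median of -0.00. Of 64 probes for 47 genes, none was called in either direction, and 16 lay above 0 and 15 below 0 on both arrays. With median centring the median was -0.02, with 11 above and 26 below. Cyp2e1, which oxidises ethanol and acetone, was highest and read 346 and 380 in the arch, against 269 and 269 in the thoracic aorta, a log2 ratio of 0.43 ± 0.07. Cyp2s1, a P450 of epithelia outside the liver, read 218 and 188 in the arch, against 174 and 160 in the thoracic aorta, a log2 ratio of 0.28 ± 0.05. With median centring Cyp2e1 was at 0.29 and Cyp2s1 at 0.18. The median of the 44 family 2 probes was 0.01.

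The lowest P450 probes belonged to genes known from liver and were dim. Cyp2a4, a testosterone hydroxylase, read 103 and 98.1 in the arch, against 123 and 123 in the thoracic aorta, a log2 ratio of -0.29 ± 0.04. Its second probe gave -0.04 ± 0.05, with opposite signs on the arrays. The 2 probes of Cyp2a5, the mouse coumarin hydroxylase, gave -0.24 ± 0.02 and -0.20 ± 0.01. Signals on the lower of them were 86.7 and 93.4 in the arch, against 104 and 108 in the thoracic aorta. The near-identical Cyp2a4 and Cyp2a5 may be read by the same probes and are not independent of each other.

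Cyp2c40, an arachidonic acid oxidase, read 94.5 and 92.1 in the arch, against 115 and 110 in the thoracic aorta, a log2 ratio of -0.27 ± 0.01. Its ratio in the scanner software's values was -0.64, past the 1.5-fold threshold on each array, and Cyp2a4 gave -0.59 there. Cyp2c29, another arachidonic acid epoxygenase, gave -0.12 ± 0.04, and Cyp2d26 gave -0.13 ± 0.00. One of 3 Cyp2d22 probes gave -0.16 ± 0.00, while the others gave 0.09 and -0.00. Of the 8 Cyp2c genes that lie side by side on chromosome 19, 2 had a ratio above 0. Genes of this cluster, like those of the Cyp3a cluster, are close in sequence and their probes may not be specific.

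**Figure D3:**
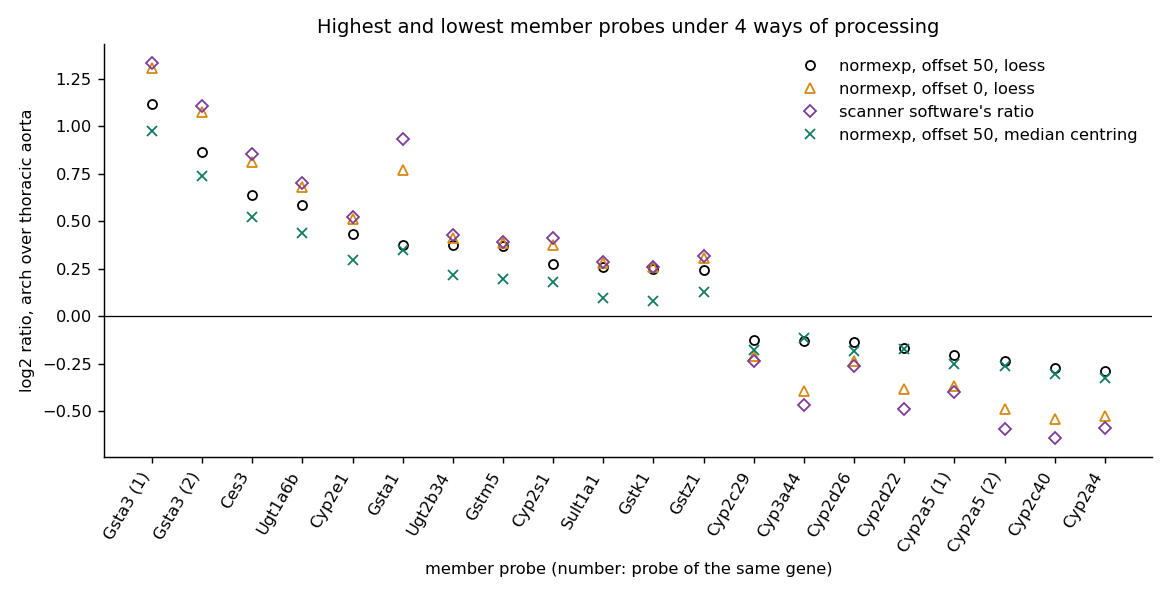
Log2 ratio of arch over thoracic aorta (y axis, mean of 2 arrays) of the 12 highest member probes and of 8 of the lowest (x axis) under 4 ways of processing the same scans. Each probe keeps its sign under all 4, the ratio of dim probes is larger without the offset (Gsta1 is at 0.38 with it and at 0.94 in the scanner software's ratios), and median centring lowers the highest 12.

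In the other P450 families the ratios were small. Cyp1b1, a P450 of blood vessels that the Ah receptor induces, read 293 and 352 in the arch, against 346 and 333 in the thoracic aorta. The signals overlapped and the 2 arrays had opposite signs (-0.08 ± 0.16). Cyp1a2, the liver form, gave -0.01 ± 0.08, and Cyp1a1 had no kept probe.

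The 6 family 3 probes had a median of -0.05, with 4 below 0 on both arrays. Cyp3a44 was both the lowest and the highest of them, at -0.13 ± 0.02 on 1 probe and 0.10 ± 0.11 on the other, and Cyp3a16 gave -0.09 ± 0.02. Cyp3a enzymes oxidise many drugs and steroids. The 12 family 4 probes, which include fatty acid hydroxylases, had a median of 0.01. They ran from -0.04 ± 0.06 (Cyp4f16) to 0.13 ± 0.07 (Cyp4a10, whose other probe gave -0.03). The probes of the 4 kept Cyp2j genes, arachidonic acid epoxygenases, all had mean ratios between 0.01 and 0.06.

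Of the carboxylesterases, Ces3 (now Ces1d), a triacylglycerol hydrolase of liver and fat, read 276 and 309 in the arch, against 192 and 182 in the thoracic aorta. Its log2 ratio was 0.64 ± 0.12, or 1.56-fold, with 0.52 on array 1, below the 1.5-fold line at 0.585, and 0.76 on array 2. The mean of the arrays was 0.52 with median centring and 0.85 in the scanner software's ratios. The other 4 kept carboxylesterase probes lay between -0.05 (Ces5, now Ces2e) and 0.07 (Ces6, now Ces2a). In the scanner software's ratios they lay between -0.15 (Ces5) and 0.16 (Ces6). These 4 probes were dim, with signals from 68.4 to 102, the added offset included. Of 10 carboxylesterase probes on the array 5 were kept, and 3 exceeded the negative control spots in all 4 channels. Ratios of such dim probes cannot show whether Ces3 alone differed in its family.

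Among the UDP-glucuronosyltransferases, 1 probe of Ugt1a6b, which conjugates planar phenols, read 454 and 439 in the arch, against 295 and 300 in the thoracic aorta, a log2 ratio of 0.59 ± 0.03. Array 1 gave 0.62 and array 2 gave 0.55, on either side of the 1.5-fold line. The second Ugt1a6b probe gave 0.02 ± 0.00, the widest disagreement between probes of any member gene. The Ugt1a genes share their last exons, so a probe there would read all of them. Ugt2b34 read 650 and 628 in the arch, against 506 and 480 in the thoracic aorta, a log2 ratio of 0.37 ± 0.01 (0.22 with median centring). The other 9 probes lay between -0.04 (Ugt3a2) and 0.05 (Ugt2b35), and Ugt8a, which makes the galactolipid of myelin, gave 0.00 ± 0.07.

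Sulfotransferases were led by Sult1a1, the phenol sulfotransferase, at 869 and 871 in the arch against 727 and 723 in the thoracic aorta, a log2 ratio of 0.26 ± 0.01. Its regions did not overlap after loess, but with median centring its ratio was 0.10. Sult1e1, which sulfates oestrogens, gave 0.10 ± 0.11. The lowest were Sult1d1 at -0.06 ± 0.03 and Sult2b1, which sulfates cholesterol, at -0.06 ± 0.06. Over the 9 probes the median was 0.00.

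Some values rest on weak signal. Of the 112 kept probes, 103 exceeded the 95th percentile of the negative control spots in all 4 channels, and both Gsta3 probes were among them. For 6 probes (Cyp2d22, Cyp2b19, Cyp2b13, Cyp1a2, Cyp2c39 and Ugt2b5) the rule was met in the thoracic aorta alone, each with 1 of 2 arrays above background in the arch. Their ratios lay between -0.09 and -0.00. Of the 40 dropped probes, 12 were above background in no channel, 16 in 1 and 12 in 2, and 15 gene names had no kept probe. The mean raw signal over background was 26.3 for the dimmest kept probe (Ugt2b5) and 34.2 for the brightest dropped one (Ces2). No member was saturated. Of 22 member genes with several kept probes, 12 had the same sign on all of them and 5 differed by over 0.2 between probes.

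For other genes of the pathway, and for cell type markers, each gene is given by its brightest kept probe. Of 15 receptors and regulators 0 were called. The highest were Nr1i3, the constitutive androstane receptor, at 0.38 ± 0.05, and Pparg, the adipocyte nuclear receptor, at 0.28 ± 0.03. The lowest were Rxra, the partner of many nuclear receptors, at -0.10 (0.03 on a second probe), and Nfe2l2, which encodes NRF2, at -0.08 (4 probes from -0.27 to -0.05). Ahr was at 0.04. Of 12 other NRF2 target genes 0 were called and all lay between -0.07 (Gclc) and 0.06 (Hmox1). With median centring that list's median was -0.13, against 0.01 with loess, with 1 above and 6 below 0 on both arrays.

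Of 41 other xenobiotic enzymes 36 were kept, with 0 called, 20 above 0 and 9 below 0 on both arrays. With median centring, which moved the kept probes down as a whole, the counts were 11 above and 19 below. Mgst1, the membrane-bound glutathione transferase, read 2831 and 3110 in the arch, against 2035 and 1897 in the thoracic aorta, a log2 ratio of 0.59 ± 0.12. Ephx2, the soluble epoxide hydrolase, read 730 and 746 in the arch, against 491 and 487 in the thoracic aorta, a log2 ratio of 0.59 ± 0.02. With an offset of 0 and in the scanner software's ratios Ephx2 was at 0.65 and 0.67, and was called. With median centring Mgst1 and Ephx2 were each at 0.43. Adh1, an alcohol dehydrogenase, was lowest at -0.35 ± 0.08, with its 3 probes running up to 0.03, and Aldh2 was next at -0.18. Of 20 other P450s 17 were kept and 0 were called. Cyp7b1, an oxysterol hydroxylase, was lowest at -0.30 ± 0.03, but was at -0.75 with an offset of 0 and at -0.91 in the scanner software's ratios, and was called lower in both. Ptgis, prostacyclin synthase, was next at -0.09 ± 0.10. The highest were Cyp20a1 at 0.15 ± 0.16 and Cyp26b1 at 0.12 ± 0.00, and the arrays had opposite signs for Ptgis and Cyp20a1.

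Markers of cell types that surround the aorta also differed between the pools. The highest ratio was 0.78 among adipocyte, 0.89 among brown adipocyte and 0.65 among mesothelial markers. All 13 adipocyte markers were kept, 12 lay above 0 on both arrays and 3 were called. Their summed signals, set largely by Fabp4 and Cfd, were 46534 and 45272 in the arch, against 34808 and 35907 in the thoracic aorta. Of 9 brown adipocyte markers 7 lay above 0 on both arrays and 4 were called, with sums of 11355 and 10871 in the arch, against 6998 and 7170 in the thoracic aorta. All 9 mesothelial markers lay above 0 on both arrays and 0 were called (1 with an offset of 0 and 5 in the scanner software's ratios), with sums of 2170 and 2303 in the arch, against 1642 and 1684 in the thoracic aorta. With median centring in place of loess the adipocyte median was 0.19, against 0.37 with loess, and the brown adipocyte median was 0.24, against 0.41, with 0 and 1 markers called. The Gsta3 probes were at 0.98 and 0.74 under that setting, lower than with loess, and both were still called. The part of fat or mesothelium in the higher Gsta3, Ces3, Cyp2e1 and Ugt1a6b signals was not tested.

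Of 10 hepatocyte markers 8 were kept, with Ttr not well above background and Serpina1a not found by name. Of the 8, 6 lay below 0 on both arrays. The 8 summed to 2274 and 2103 in the arch, against 2757 and 2791 in the thoracic aorta, with Alb making up most of the gap. Alb, serum albumin, was called lower in the arch at 561 and 584, against 1089 and 1120 in the thoracic aorta, a log2 ratio of -0.95 ± 0.01. Apoa2 and Fgb, an apolipoprotein and a fibrinogen chain, were at -0.59 ± 0.10 and -0.48 ± 0.05, and both were called lower with an offset of 0 and in the scanner software's ratios. Ahsg, another liver secretory protein, was at 0.36 ± 0.13. The part of liver RNA in the Cyp2a4, Cyp2a5 and Cyp2c40 values was not tested.

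All 9 smooth muscle markers were well above background and none was called. None lay above 0 and 4 lay below 0 on both arrays, with Myh11 and Des lowest at -0.22 each. Their sums, which a few very bright probes such as Acta2 and Tagln set, were 159468 and 150397 in the arch, against 157985 and 154537 in the thoracic aorta. Macrophage markers were below 0 on both arrays for 7 of 9. Their sums, set largely by Lyz2, were 23563 and 21382 in the arch, against 26437 and 27940 in the thoracic aorta. Of 9 cardiomyocyte markers 8 were kept, and Myh6 was not well above background. Of the 8, 6 lay above 0 and 0 below 0 on both arrays. Called higher in the arch were 3: Myl7 at 2.33 ± 0.01, Tnnt2 at 1.59 ± 0.03 and Sln at 0.87 ± 0.04. Actc1, the brightest, was at -0.05 ± 0.11, with opposite signs on the arrays. The sums, set largely by Actc1, were 14977 and 14814 in the arch, against 13559 and 15397 in the thoracic aorta. The part of cardiac cells in the members' ratios was not tested. Of 9 endothelial markers 8 were kept, Tie1 was not well above background, and none was called. Of the 8, which were dim, 5 lay above 0 and 1 below 0 on both arrays. The endothelial median was 0.10, with 0.29 in the scanner software's ratios and 0.09 with median centring. The lists for adventitial fibroblasts (9 of 9 kept), airway and lung epithelium (6 of 9 kept, with Foxj1, Nkx2-1 and Cdh1 not well above background) and nerve (7 of 7 kept) had 0 called, with medians of 0.04, 0.05 and 0.05. With median centring those medians were -0.13, -0.02 and -0.03. Of the fibroblast markers 4 lay above 0 and 1 below 0 on both arrays after loess. The highest were Lum at 0.55 ± 0.06 and Pdgfra at 0.55 ± 0.15, with another Pdgfra probe at 0.01. Lum read 15249 and 15486 in the arch, against 10841 and 10120 in the thoracic aorta.

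**Figure D4:**
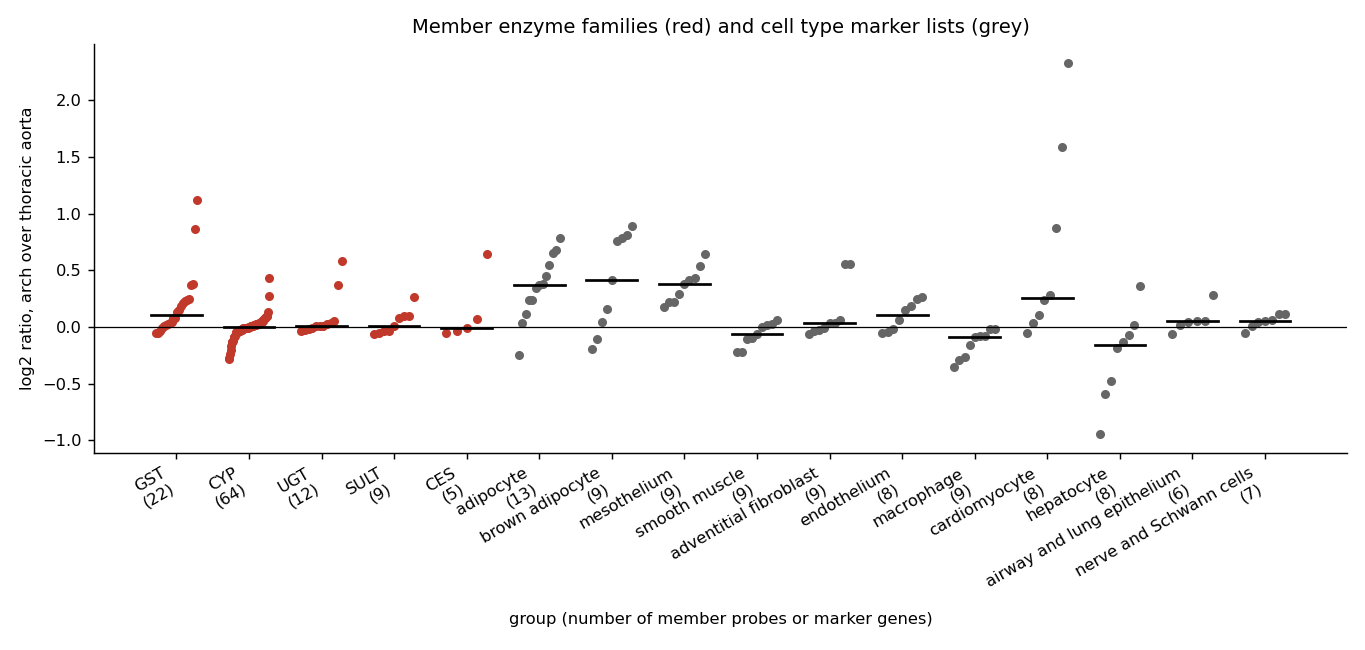
Log2 ratio of arch over thoracic aorta (y axis) of the member probes of the 5 enzyme families (red) and of the genes of 11 cell type marker lists (grey), with 1 point per probe or gene, the number in brackets and a bar at the median. The adipocyte, brown adipocyte, mesothelium and cardiomyocyte medians lie above those of all 5 families, and the hepatocyte median lies below them.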

How the data were processed

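RNA pools of the arch and the thoracic aorta were hybridised on 2 arrays in a technical dye swap, counted as 1 replicate. Array 1 had the arch in Cy5 and array 2 had it in Cy3, per the labels. Per the submitters' processing notes, spots were quantified with Agilent Feature Extraction, version 9.1.1.1. RNA integrity numbers were 7.5 to 7.7 and 1 µg of RNA was labelled per dye, per the labels' protocols. The deposited scanner files give each spot's mean signal and local background as an intensity, per the file headers. The same deposited files carry, as log10, the scanner software's ratio of Cy5 over Cy3. The authors' value table states neither scale nor direction. Set against those ratios, 99.9% of its entries were equal (tolerance 1e-06) once both arrays ran as arch over thoracic aorta, with medians of 0.

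Intensities were corrected by normexp (offset 50) and normalised by loess within each array, with controls at weight 0 (limma 3.58.1, R 4.3.3). Control spots and outlier spots (20 and 4) were left out, the sign on array 2 was reversed to give arch over thoracic aorta, and repeated spots were averaged per probe. This left 41150 probes. Signals per region came from Aquantile scaling between arrays. The code was tested on simulated spots; after a first run missed its limit on false calls with an offset of 0, that limit was eased and applied to bright spots only. Each array held 43790 spots, and 71.3% to 81.5% of gene spots were well above background per channel. The precision is limited by the number of arrays.

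Members and gene lists were chosen with earlier results of these data known. Named were called members, the 12 highest and 12 lowest, the extremes of each class, all other probes of those genes, members above background in 1 region only, and the extremes of each list. Gene symbols were matched to RefSeq (98 probes by accession and 14 by name). The array files name no genome build, so the coordinates given are those of the RefSeq promoter table. Promoters were picked by ratio, with ratios known. Of 2 display sets tried, one with Gstm5, picked for its motif match, was not kept. Alternatives were other background corrections, normalisations, filters, thresholds, probe rules and single arrays.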

Additional observations from a re-analysis of the deposited data

How the results depend on the processing

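No paired analysis was possible because both arrays hold the same 2 pools, which count as 1 replicate. The count of members called higher was 2 by the settings reported and 2 with median centring. It was 5 with an offset of 0, 5 in the scanner software's ratios and 5 in the value table. Those 5 were both Gsta3 probes, Gsta1, Ces3 and 1 Ugt1a6b probe. It was 1 with the brightest probe or the mean of the probes per gene, which by construction leaves 1 value for Gsta3, 4 at 1.3-fold and 1 at 2-fold. On each array alone it was 3, against 83 of the 30520 kept probes on array 1 and 101 on array 2. Beside the 2 Gsta3 probes, the member was Ugt1a6b on array 1 and Ces3 on array 2. Over all 21548 kept gene names, 55 were called higher by the brightest probe and 41 by the mean of the probes. The count called lower, 0 as reported, was 1 (Cyp2c40) in the scanner software's ratios and in the value table. The member median of 0.0107 was -0.0124 with median centring, and 0.0103 to 0.0289 on single arrays. The median of all kept probes was -0.0013 as reported and -0.0337 with median centring. Over all kept probes the calls were 64 higher and 56 lower as reported, 146 and 126 with an offset of 0, 200 and 160 in the scanner software's ratios, and 35 and 85 with median centring. The cause was not tested. Of 527 values of the 49 named probes under the alternatives, 131 moved by more than the SD of the 2 arrays and 43 changed sign, 0 of them for a called probe. The filter on negative controls and the class and list medians and sign counts by setting were added after the data were seen. With 1 pool per region, none of these settings measures the spread between animals.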
